A study of Mus musculus with 96 samples.

Results

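Aminoacyl transfer RNA (tRNA) synthetases are the enzymes that join each amino acid to its own tRNA, the step that precedes protein synthesis on the ribosome. The 36 genes described here are the mouse synthetase genes whose symbols were looked up in every RNA, methylated DNA and bisulfite table of the series. They comprise 20 genes for cytosolic enzymes and 16 for mitochondrial enzymes, whose symbols end in 2. Of the 36 genes, 25 appeared in at least 1 table of any assay and 11 in none, and 12 appeared in an RNA table. In the series, 12371 genes were tested for RNA. How many of all genes appeared in at least 1 table was not counted, so the 25 have no background share. The genes were taken by family name and not by a threshold on measured values, although earlier results of these data were known when the family was picked.

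By its title, the study concerned the combined effect of irradiation and high fat feeding on progenitor cells of muscle and fat. All animals were C57Bl/6 mice, with no other allele named, and they formed 4 groups, irradiated on a high fat diet, irradiated on chow, control on a high fat diet and control on chow. Muscle satellite cells, which regenerate fibres after injury, were measured with 3 assays and 6 libraries per group in each. These were RNA sequencing, sequencing of methylated DNA captured on a methyl-CpG-binding domain (MBD), and reduced representation bisulfite sequencing (RRBS), which reads the methylation of single cytosines. The stromal vascular fraction, the cells of fat tissue other than adipocytes, was profiled by RRBS with 7 libraries from irradiated mice on a high fat diet, 4 from irradiated mice on chow, 7 from controls on a high fat diet and 6 from controls on chow. The labels state neither sex, age, radiation dose and time of collection nor whether libraries came from separate or pooled animals. The p-values then measure the spread between these libraries, which may be partly technical.

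The 14 tables held the authors' comparison statistics and 0 columns of values for single libraries. No level per library, no standard deviation and no sequencing depth can therefore be given, and precision is stated as an approximate standard error derived from the likelihood ratio. Library-level markers could not be read either. Of 11 satellite cell markers, Cdh15, Itga7 and Megf10 were listed over both diets. Their mean abundances were 9.10, 10.60 and 9.01 log2 CPM, a scale of reads scaled to a common library total. Listed markers of other cells ran from 0.33 for the endothelial Cdh5 to 10.10 for the perivascular Acta2. These abundances therefore do not check the labelled cell type or its purity, and Pax7, Myf5 and Myod1 had no listed value.

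Cytosolic synthetases fall into 2 structural classes, class I and class II, and a set of them is held together with scaffold proteins in a multi-synthetase complex while the others are free in the cytosol. Mitochondria use their own synthetases, encoded in the nucleus, for the few proteins made there. Several cytosolic synthetase genes are known targets of ATF4, the transcription factor of the integrated stress response, which also activates genes for amino acid uptake and synthesis. Muscle satellite cells depend on protein synthesis and its restraint as they leave and enter quiescence.

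The C/EBP-ATF composite motif bound by ATF4 was searched as TGATGNAA on both strands of promoters, from 250 bases before to 50 bases after the start in the RefSeq table (GRCm38.p6). It was found in 3.97% of 32851 promoters and in those of 4 of the 26 synthetase genes analysed. They are shown because 3 of the 4, Gars, Yars and Tars, were lower after irradiation in the RNA tables, as given below. Each 30-base window is written 5′ to 3′ on the gene's strand, with the match in capitals. The match lies on the gene's strand in Yars and on the opposite strand in the other windows.
Gars, chr6:55037960-55037989: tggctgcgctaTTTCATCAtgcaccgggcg
Tars, chr15:11399655-11399684: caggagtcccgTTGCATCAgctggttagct
Yars, chr4:129189895-129189924: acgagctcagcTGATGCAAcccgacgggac
Iars, chr13:49682126-49682155: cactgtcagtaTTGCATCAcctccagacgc
Counted from 1 at the start, with no position 0, the matches began at position -30 in Gars, -15 in Tars, 4 in Yars and 8 in Iars. For the 2 genes with a match upstream of the start, the 250 bases before the start are given for context, again with the match in capitals.
Gars, chr6:55037751-55038000, plus strand: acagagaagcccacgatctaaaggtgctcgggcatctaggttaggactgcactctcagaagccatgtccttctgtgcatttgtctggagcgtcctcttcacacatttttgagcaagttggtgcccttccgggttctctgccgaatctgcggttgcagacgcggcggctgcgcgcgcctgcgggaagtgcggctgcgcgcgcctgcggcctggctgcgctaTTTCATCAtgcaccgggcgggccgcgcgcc
Tars, chr15:11399659-11399908, minus strand: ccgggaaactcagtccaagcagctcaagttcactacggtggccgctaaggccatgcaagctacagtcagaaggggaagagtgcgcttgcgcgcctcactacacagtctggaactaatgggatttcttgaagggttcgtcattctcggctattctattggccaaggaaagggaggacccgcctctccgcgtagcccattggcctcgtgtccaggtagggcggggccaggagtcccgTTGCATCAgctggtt
These promoters differ in base composition over the whole 300 bases. The Gars promoter held 64.0% G and C with 31 CpG dinucleotides and the Tars promoter 59.0% with 20.

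The E-box CACGTG, the motif bound by Myc and related factors, does not overlap these matches and was found in 7.15% of the 32851 promoters. Among synthetases it was found in Tars, Farsb, Iars and Ears2. Of the 8 genes analysed that were listed in an RNA table, 3 held the composite motif and 2 the E-box, and of the other 18 genes 1 and 2 did. A match is a run of letters and not a measured binding site. Promoters of Aars, Cars, Hars, Lars, Nars, Rars, Vars, Wars, Hars2 and Pars2 were not analysed here. Gars and Tars each carried the composite motif upstream of the start, as the plot of motif positions shows.

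**Figure D1:**
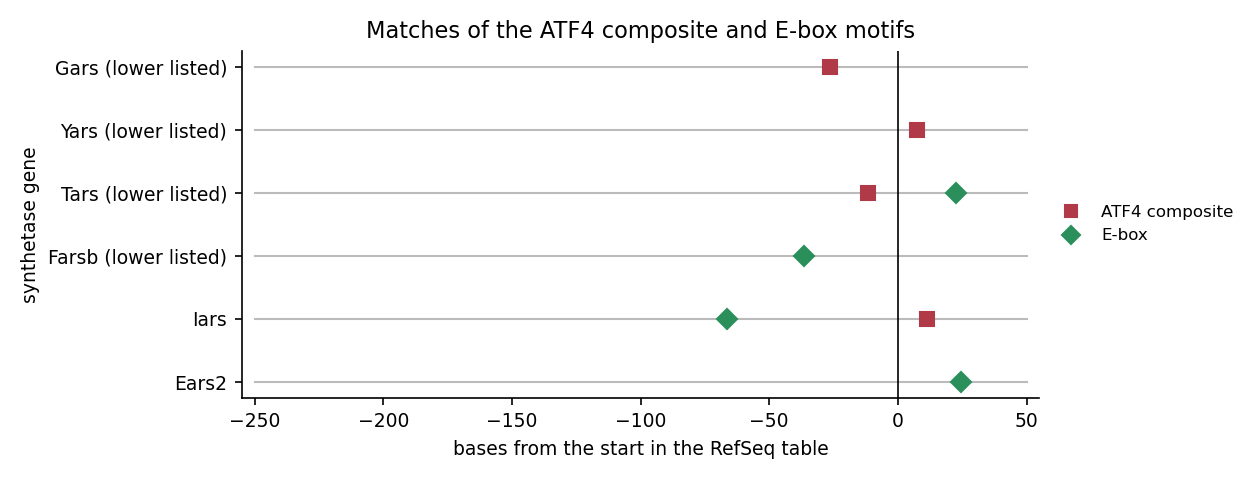
Positions of the ATF4 composite motif (squares) and the E-box (diamonds) in the 6 synthetase promoters that held either, in bases from the start in the RefSeq table, with the grey line marking the 300 bases searched. The composite motif began at -30 in Gars and -15 in Tars.

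The first RNA comparison set irradiated against control mice over both diets. Cytosolic synthetase transcripts were among those that fell. Past an adjusted p of 0.05, 8 of 20 cytosolic genes and 1 of 16 mitochondrial genes were lower in irradiated mice and 0 were higher, while 3.64% of all 12371 tested genes were lower and 3.05% higher at that threshold. At the authors' own threshold of 0.1, 10 of 20 cytosolic and 2 of 16 mitochondrial genes were lower and 0 were higher, beside 7.05% of all tested genes lower and 6.65% higher. Whether the cytosolic and mitochondrial shares differ was not tested. The shares of all tested genes were not matched for abundance. Listed cytosolic members ran from 6.79 to 8.96 log2 CPM, while the mitochondrial Rars2 and Nars2 stood at 4.90 and 5.07. Small changes pass a threshold more easily in abundant transcripts, and the part of abundance in these shares was not tested. Values for both diets are the sum in the authors' deposited table divided by 2, that is, the average effect per diet, and adjusted p-values are those of the authors' likelihood ratio test in edgeR with Benjamini-Hochberg adjustment.

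Gars, which charges glycine tRNA in both the cytosol and mitochondria, had the lowest mean log2 fold change among the 12 members with a listed value, -0.45 with an approximate standard error of 0.10 (adjusted p = 0.00186). On a linear scale it fell by 26.8%, with an approximate 95% interval of -36.5% to -15.5%, and it ranked 125 by p-value among the 12371 genes. Gars lies on chr6:55038001-55079504 in mm10. Nars, the asparagine enzyme on chromosome 18, had a mean log2 fold change of -0.36 ± 0.09 (approximate SE, adjusted p = 0.00397). Sars, the serine enzyme on chromosome 3, also charges the tRNA on which selenocysteine is made, and stood at -0.36 ± 0.10 (adjusted p = 0.0118). Cars, the cysteine enzyme on chromosome 7, was at -0.33 ± 0.08 (adjusted p = 0.00258). All 4 values come from the authors' deposited table divided by 2, and their approximate intervals overlap widely, so their order is not established.

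Enzymes for leucine, tyrosine, threonine and methionine followed with smaller falls. Lars, whose protein also takes part in leucine sensing for the growth kinase mTORC1, had a mean log2 fold change of -0.32 ± 0.09 (adjusted p = 0.010). Yars, the tyrosine enzyme, was at -0.31 ± 0.09 (adjusted p = 0.0258) and Tars, the threonine enzyme, at -0.27 ± 0.08 (adjusted p = 0.0227). Mars, which charges both the initiator and the elongator methionine tRNA, stood at -0.25 ± 0.08 (adjusted p = 0.0378). The mitochondrial arginine enzyme gene Rars2 was the sole mitochondrial member past the threshold, at -0.28 ± 0.09 (adjusted p = 0.0382), again from the authors' deposited table divided by 2. On a linear scale, Mars fell by 16.1% and Lars fell by 20.1%, the ends of the range of these 5.

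Just outside the threshold stood 3 further genes, listed by the authors at adjusted p-values between 0.05 and 0.1. The mitochondrial asparagine enzyme gene Nars2 had a mean log2 fold change of -0.30 (adjusted p = 0.0523), the alanine enzyme gene Aars -0.27 (adjusted p = 0.0592) and Farsb, the beta subunit of the phenylalanine enzyme, -0.20 (adjusted p = 0.0727) in the authors' deposited table divided by 2. Farsa, which encodes the alpha subunit of the same enzyme, was in no RNA table. Sizes within the family were narrow. The 12 listed members ran from -0.45 to -0.20, whereas all 872 lower listed genes had a median of -0.39 with quartiles of -0.60 and -0.29. The members therefore lay at ordinary or small sizes among lower genes. Mean abundances of the 12 ran from 4.90 to 8.96 log2 CPM, a scale that is not corrected for gene length and so does not rank genes against each other.

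**Figure D2:**
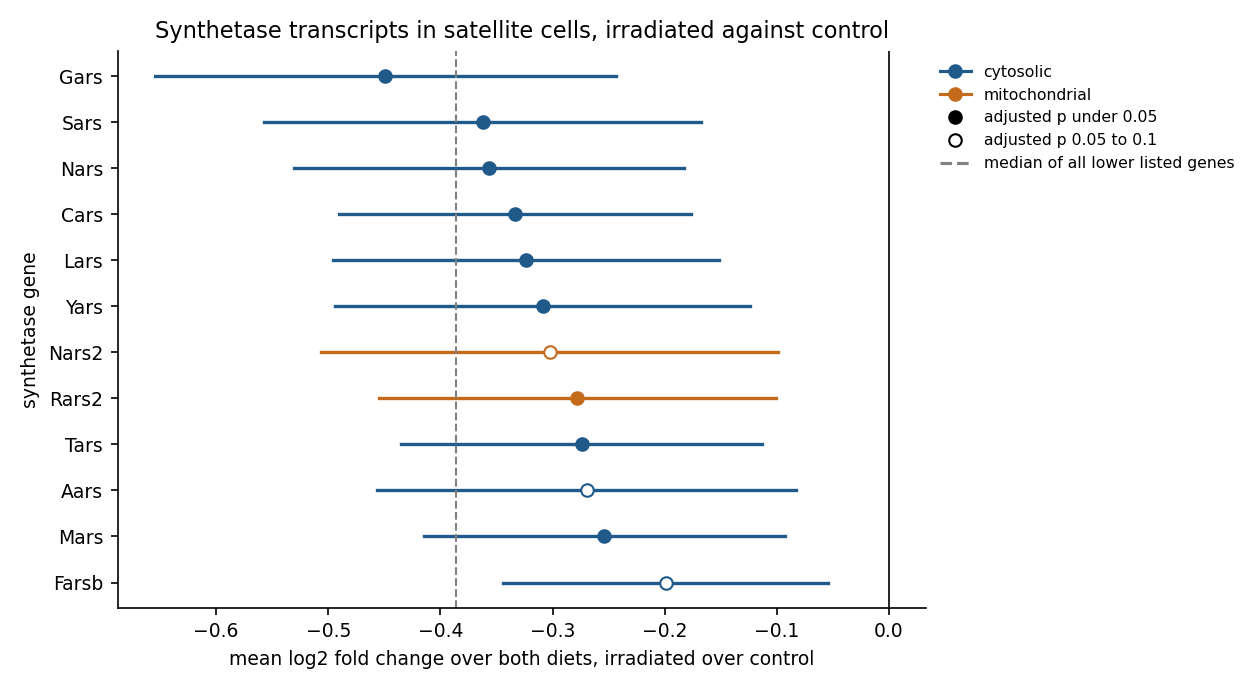
Mean log2 fold change over both diets, irradiated over control, for the 12 synthetase genes listed by the authors, with bars as approximate 95% intervals and filled points past an adjusted p of 0.05. All 12 points lie below 0, between -0.45 for Gars and -0.20 for Farsb, and most lie nearer to 0 than the dashed median of all lower listed genes at -0.39.

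In no RNA table were 24 members, and whether these were among the 12371 tested genes is not known. The 10 cytosolic ones were Dars, Eprs, Farsa, Hars, Iars, Kars, Qars, Rars, Vars and Wars. The 14 mitochondrial ones were Aars2, Cars2, Ears2, Fars2, Hars2, Iars2, Lars2, Mars2, Pars2, Sars2, Tars2, Vars2, Wars2 and Yars2. A gene tested and not listed had an adjusted p of at least 0.1, which does not show that its transcript was at the same level in irradiated and control mice. Because 24 members had no value, no median over the family was formed.

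Within the cytosolic family the listed genes were spread over structural classes. Past 0.05, 4 of 9 class I genes (Cars, Lars, Yars and Mars) and 4 of 10 class II genes (Gars, Nars, Sars and Tars) were lower, leaving aside Eprs, whose protein joins a class I and a class II enzyme in one chain, and beside 3.64% of all tested genes. Of the 8 genes for enzymes held in the multi-synthetase complex, 2 were lower, Lars and Mars. Of the 12 genes for free enzymes, 6 were lower at 0.05 and 8 at 0.1, where Aars and Farsb were added, beside 3.64% and 7.05% of all tested genes. The difference between complex and free enzymes was not tested. Aimp2, a scaffold protein of the complex, was lower at -0.29, as in the authors' deposited table divided by 2 (adjusted p = 0.0399), the 1 of 3 scaffold genes that passed, and Aimp1 and Eef1e1 were not listed.

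The second comparison asked for the effect of irradiation within each diet. The chow libraries are part of the comparison over both diets, so the values stand side by side and do not support each other. On chow, 2 of 20 cytosolic genes and 0 of 16 mitochondrial genes were lower past 0.05, beside 0.865% of all tested genes lower and 0.388% higher. For chow, the deposited table of the authors gave Gars a log2 fold change of -0.54 ± 0.15 (approximate SE, adjusted p = 0.0342) and Cars -0.42 ± 0.11 (adjusted p = 0.0257). At the authors' threshold of 0.1, 4 cytosolic genes were lower on chow, beside 1.59% of all tested genes. The additional ones were Sars at -0.44 (adjusted p = 0.0809) and Nars at -0.42 (adjusted p = 0.0536) in the same deposited table.

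On the high fat diet, 0 of 36 members were listed in either direction at 0.1, where 0.0485% of all tested genes were lower and 0.097% higher. With 18 genes listed in all, this list had little room for any family. For the 4 chow genes, subtracting the chow effect from the deposited sum gave the effect on this diet. It was -0.36 ± 0.15 for Gars, -0.29 ± 0.13 for Nars, -0.28 ± 0.14 for Sars and -0.24 ± 0.11 for Cars (log2 fold change ± approximate SE). All 4 values were negative, but none of these genes passed the authors' threshold on this diet. The genes entered through the chow list and the list over both diets, which includes the high fat diet libraries, so negative values are favoured by the choice of genes.

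The difference between the diets was then tested directly, as the effect on the high fat diet minus the effect on chow. It was 0.18 log2 units for Cars (approximate 95% interval -0.13 to 0.49), 0.18 for Gars (-0.24 to 0.59), 0.16 for Sars (-0.23 to 0.55) and 0.13 for Nars (-0.21 to 0.48). In an approximate normal test adjusted by Benjamini-Hochberg over the 314 genes for which it could be computed, the smallest adjusted p of all was 0.594, and 0 genes passed 0.05, with 15 at an unadjusted p under 0.05. Adjusted p-values were 0.594 for Cars and 0.685 for Nars, with Gars and Sars between them. The lower limits allow a fall on the high fat diet that is larger than on chow. Every upper limit lies above 0, so the intervals also allow a smaller fall on the high fat diet. The effects on the high fat diet itself had approximate 95% intervals below 0 for all 4 members, whose choice favours negative values. The effect was smaller on the high fat diet for all 4 members, as it was for 296 of the 314 genes, and entry into this set through the chow list favours large chow values.

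For the other 8 listed members, absence from the chow and high fat diet lists sets approximate limits on the estimates. Lars, for instance, had an estimate between -0.47 and -0.27 on the high fat diet and between -0.37 and -0.17 on chow. All 8 estimates on the high fat diet had an upper limit below 0, the nearest being -0.083 for Farsb. On chow the upper limit lay below 0 for 7 of the 8 and at 0.00092 for Farsb. On the high fat diet this outcome was fixed in advance by the list thresholds. With the standard error assumed below, any gene listed lower over both diets and absent from the chow list gets an upper limit below 0. The limits on the high fat diet therefore do not show a fall on that diet. For chow, entry through the list over both diets favours negative limits. The limits on both diets assume that the standard error on 1 diet was 0.708 times that of the sum. That is the median ratio among the genes where both were known.

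**Figure D3:**
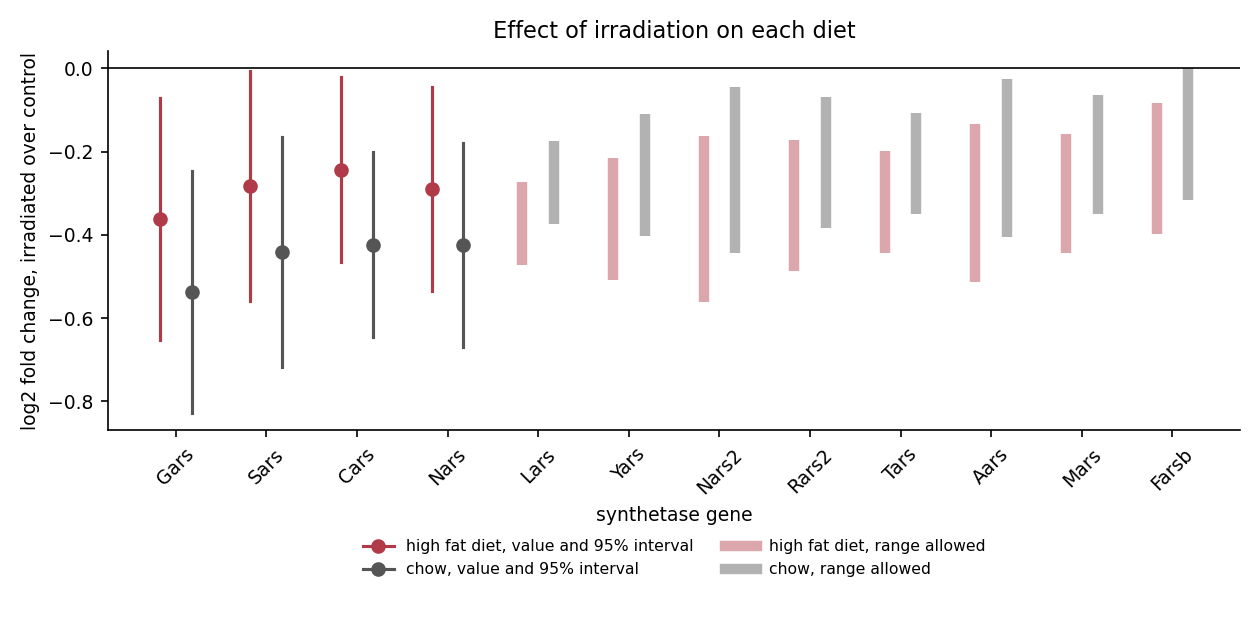
Log2 fold change, irradiated over control, on the high fat diet (red) beside chow (grey) for the 12 listed synthetase genes. Points with approximate 95% intervals are shown for the 4 genes with a value on each diet. Pale bars give an approximate range for the estimate of each other gene, which rests on an assumed standard error. All 4 points on the high fat diet are nearer to 0 than their chow partners, with overlapping intervals.

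Diet itself was compared in irradiated mice, high fat diet against chow. The authors' deposited table held 1 gene, higher on the high fat diet, which is 0.00808% of the tested genes, and 0 of 36 synthetases. A table for diet in control mice was not analysed here.

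Genes that work beside the synthetases were described over both diets from lists of known function. These lists were chosen with earlier results of these data known, so their counts are a description and not independent of the data. Amino acid transport and synthesis genes fell most often, 15 of 30 past 0.05 with 0 higher, against the 3.64% of all tested genes. The largest changes were in Slc7a3, a transporter of cationic amino acids, at -1.53 (adjusted p = 2e-05), Aldh1l2, an enzyme of mitochondrial folate metabolism, at -0.89, Cth, which makes cysteine, at -0.85, and Slc7a5, the transporter of large neutral amino acids such as leucine, at -0.80. Psat1, of serine synthesis, at -0.79 and Slc3a2, the partner chain of Slc7a5, at -0.72 completed the 6 largest, all from the authors' deposited table divided by 2. On chow 10 of the 30 were lower past 0.05, beside 0.865% of all tested genes. Slc7a3 was at -2.04, Aldh1l2 at -1.01, Psat1 at -0.997 and Mthfd2, another mitochondrial folate enzyme, at -0.92. Slc7a5 at -0.92 and Pycr1, of proline synthesis, at -0.88 followed, all from the authors' deposited table of that diet.

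The integrated stress response list had 10 of 28 genes lower and 0 higher past 0.05, beside 3.64% and 3.05% of all tested genes. Fgf21, a secreted metabolic hormone, stood at -2.29 (adjusted p = 7.87e-07), Trib3, a pseudokinase induced by stress, at -1.68 and the stress transcription factor Ddit3 at -1.33, in the authors' deposited table divided by 2. The secreted factor Gdf15 at -0.90, the glutathione-degrading enzyme Chac1 at -0.76 and the phosphatase subunit Ppp1r15a at -0.69 followed, again as deposited values divided by 2 from the authors' deposited table. Atf4 itself, named after its value was seen, was at -0.41 (adjusted p = 0.0248). On chow, 2 of the 28 were lower, beside 0.865% of all tested genes. They were Fgf21 at -2.84 and Atf5, a transcription factor related to Atf4, at -0.85, from the authors' deposited table of that diet.

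Transcripts for the supply and the charging of some amino acids can be set side by side in the same comparison. Genes outside the naming rule were picked here after their values were seen. Neither amino acids nor tRNA charging was measured, and listed synthetases such as Yars, Tars and Mars are not paired here. For asparagine, Asns, which synthesises it, was at -0.71 (adjusted p = 7.37e-05) beside Nars at -0.36 and Nars2 at -0.30. For serine and glycine, the synthesis enzymes Phgdh at -0.43, Psat1 at -0.79 and Psph at -0.52 and the glycine transporter Slc6a9 at -0.68 stood beside Sars at -0.36 and Gars at -0.45. For cysteine, Cth at -0.85 stood beside Cars at -0.33, and for leucine Slc7a5 at -0.80 stood beside Lars at -0.32. Every supply gene named here had a larger estimated fall than the synthetase beside it, except Phgdh, whose value was close to that of Gars. The choice of genes favours this order. Genes of the same list without a listed value, such as Shmt1, Shmt2 and Cbs, were left out, so it does not show that supply fell more than charging. All are mean log2 fold changes from the authors' deposited table divided by 2, and the differences between genes were not tested.

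Other lists of the translation machinery held few or no called genes past 0.05. In tRNA maturation and modification 3 of 58 genes were lower and 0 higher, near the 3.64% of all tested genes. At 0.1, 7 of the 58 (12.1%) were lower and 0 higher, beside 7.05% of all tested genes. Those past 0.05 were Dus2, a tRNA dihydrouridine synthase, at -0.45, Trmu, which thiolates mitochondrial tRNAs, at -0.39 and Trit1, which adds an isopentenyl group to tRNA, at -0.32 in the authors' deposited table divided by 2. For RNA polymerase III, which transcribes tRNA genes, 0 of 23 genes were listed even at 0.1. Editing proteins had 0 of 6 past 0.05, with Prorsd1 at -0.37 (adjusted p = 0.0772). Among 11 elongation factor genes, 0 were lower and 1 was higher, Eef2k, the kinase that inhibits elongation factor eEF2, at 0.49, as in the authors' deposited table divided by 2 (adjusted p = 0.0328). At 0.1, Gfm2 was lower as well, at -0.22 (adjusted p = 0.0655).

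**Figure D4:**
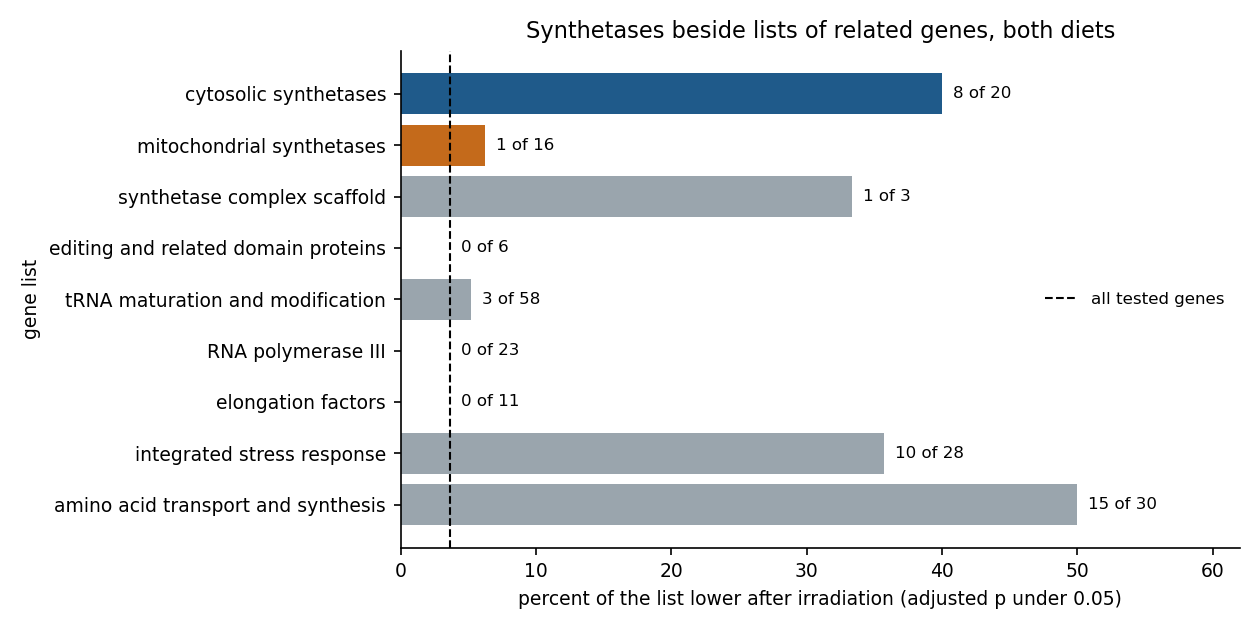
Percent of each gene list lower in irradiated than in control satellite cells over both diets at an adjusted p under 0.05, with the counts beside the bars and the dashed line at 3.64%, the share of all tested genes. Cytosolic synthetases (8 of 20), the integrated stress response (10 of 28) and amino acid transport and synthesis (15 of 30) stand well to the right of the line, mitochondrial synthetases (1 of 16) near it. The lists were chosen with earlier results of these data known.

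Markers of other cells moved in the same comparison. Of all tested genes, 3.64% were lower and 3.05% higher past 0.05 over both diets, and 0.865% were lower on chow. Of the satellite cell markers, 1 of 11 was lower past 0.05, Cdh15 at -0.46, and Itga7 and Megf10 stood at -0.26 and -0.23 with adjusted p-values between 0.05 and 0.1. Fibroblast markers were lower in 3 of 7, Thy1 at -1.37, Dcn at -1.29 and Col1a2 at -1.18, immune markers in 2 of 7, Itgam at -0.79 and Mrc1 at -0.59, and perivascular markers in 2 of 6, Acta2 at -0.93 and Mcam at -0.56, with Rgs5 higher at 0.94. Endothelial markers had 0 of 8 over both diets, but on chow Cdh5 was at -3.03 and Pecam1 at -2.25, scarce transcripts at 0.33 and 0.60 log2 CPM. Adipocyte markers had 0 of 5, and of 6 genes of mature fibres Ckm was at -1.16 and Myh2 at 3.79. These are values of the authors' deposited tables, divided by 2 where over both diets. Summed levels of the markers in each group cannot be given from comparison statistics, and their part in the fall of the synthetases was not tested. In these bulk samples, fewer cells of a type and less RNA per cell cannot be told apart.

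Methylated DNA capture in satellite cells was listed for 7 regions of 5 synthetase genes, 4 of them mitochondrial, with an unadjusted p-value. The share of all genes with a listed region was not counted. The labels and headers do not name the sides of this contrast, so directions are as coded. Iars2, the mitochondrial isoleucine enzyme gene, had the largest change, a log2 fold change of 1.64 (unadjusted p = 6.13e-05) at a CpG shore on chr1:185326864-185328863 (mm10), annotated as exon 2 of 23, as the authors list it in their deposited table. It was the 1 synthetase among 190 listed shores, of which 34.2% were higher as coded. Among the 52 listed shores of like abundance, within 0.5 log2 CPM, 96.2% were higher, so its direction was that of shores at this abundance.

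Exon regions gave smaller values. Hars2, the mitochondrial histidine enzyme gene, stood at 0.55 (unadjusted p = 0.00152) and Eprs, for the joined glutamate and proline enzyme, at 0.36 (unadjusted p = 0.00368) in the authors' deposited table. Cars2, the mitochondrial cysteine enzyme gene, was at -0.32 (unadjusted p = 0.00246) and Tars2, the mitochondrial threonine enzyme gene, at -0.45, -0.38 and -0.38 for 3 overlapping transcripts that share most of their DNA. Of these 6 exon regions, 3 of them the same stretch of Tars2, 2 were higher as coded, and 66.2% of the 2455 listed exon regions were. That share depends on abundance. Among listed exons within 0.5 log2 CPM, 72.6% were higher for Hars2, 14.2% for Eprs, 13.8% for Cars2 and 46.7%, 33.5% and 33.3% for the 3 Tars2 transcripts. Eprs was thus higher where most listed exons were lower, while Hars2, Cars2 and Tars2 had the more frequent direction at their abundance. None of the 5 genes was in an RNA table, where 12 of all 36 members were listed.

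Bisulfite sequencing gave 60 regions of 15 synthetase genes, 13 genes in satellite cells and 6 in the stromal vascular fraction, with Dars, Farsa, Ears2 and Iars2 in both. Here too, the share of all genes with a listed region was not counted. The authors' deposited tables give the median methylation difference of group 1 minus group 2 without saying which samples these were, so no treatment is attached to a direction and no group levels are reported. For 4935 of the 5003 intervals found in both the radiation and the diet table of satellite cells, and for 2912 of 2987 in the stromal vascular fraction, the level of group 1 was the same number in both tables, to within 1e-09. This held for all 14 and all 4 synthetase intervals. The radiation and diet differences at such an interval thus share 1 side and are not independent, and whether the values are observed medians or estimates from a model is not known. All but 1 of the regions lay in promoters within 1 kb of the start. The exception was an exon region of Tars, in exon 8 of 19, with a difference of -13.8 percentage points in the diet table of satellite cells. As these tables list regions that the authors had already selected, their unadjusted p-values, the largest being 0.0141 for a region of any gene, are not used as tests here.

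In satellite cells the radiation table held 17 regions of 8 synthetase genes, 9 with a positive and 8 with a negative difference. Of the 17, 7 reached 10 points, beside 51.9% of the 9827 listed regions. The diet table held 25 regions of 12 genes, 10 positive and 15 negative, and 12 of the 25 reached 10 points, beside 47.9% of 9617. Members were thus near the background in both tables.

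Gars had 10 of these regions, 5 in each table, at the same positions. They lay 121, 125 to 146, 152, 154 and 161 to 171 bases after the start, inside the gene and downstream of the promoter run printed above. In the authors' deposited radiation table the differences at these positions were 0.0994, -34.3, 0.164, -34.0 and 0.208 percentage points, in this order. Large and near-0 differences therefore alternated along these 5 regions. The authors' deposited diet table gave -34.4, 0.117, -34.0, 0.169 and -33.7 points at the same positions, so every position with a large difference in 1 table was near 0 in the other. The plot of Gars differences shows this alternation. A large difference for radiation or diet alone was common. Of 5003 satellite cell intervals shared by both contrasts, 2663 reached 20 points in only 1 of them. The same was true of 12 of the 14 shared synthetase intervals, which include those of Gars. Whether these shares differ was not tested. In the radiation and diet tables of satellite cells, all 2237 and all 2208 pairs of neighbouring listed regions within 50 bases had opposite signs, so the change of sign from one Gars region to the next is no feature of Gars.

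**Figure D5:**
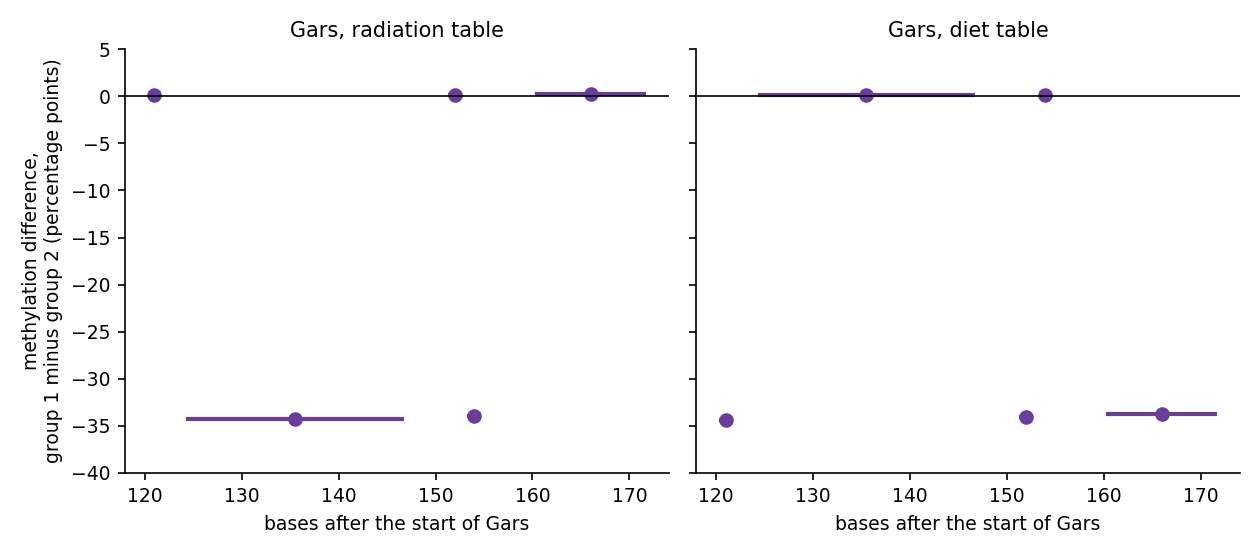
Median methylation difference, group 1 minus group 2 in percentage points, at the 5 listed regions of Gars in satellite cells, by distance from the start in bases, in the radiation and diet tables, with lines spanning each region. The difference switches between near 0 and about -34 points, and the positions at -34 in 1 table are those near 0 in the other.

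Some other synthetase promoters also held a large difference in 1 table beside a small one in the other. Farsa, for the alpha subunit of the phenylalanine enzyme, had a difference of -28.1 points for radiation and 0.568 for diet at 15 bases after the start, and 0.354 for radiation and -30.4 for diet at 26 to 53 bases. Its regions around the start did not coincide between the tables, with 1.44 points for radiation from position -38 to 12, and 2.98 from -58 to -34 and -26.6 from -17 to 12 for diet. Sars2, the mitochondrial serine enzyme gene, did not alternate along its promoter. It had 0.114 and 0.621 points for radiation and -34.3 and -33.0 for diet in its regions 56 to 91 and 258 to 328 bases after the start. Iars2 was large in both radiation regions, -34.1 points at 143 to 163 bases after the start and -28.5 at 346 to 385, and had 0.292 for diet at 143 to 163 and 0.318 at 346 to 357. Lars2, the mitochondrial leucine enzyme gene, had -33.3 points for radiation and 0.197 for diet in the region from position -207 to -126, and a further diet region at 2.16 points. Ears2, for the mitochondrial glutamate enzyme, had 0.336 for radiation and -31.0 for diet.

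Tars2 was large in both tables at 1 position. At -48 its difference was 33.9 points for radiation and 34.5 for diet, large and positive in both of the authors' deposited tables, and the neighbouring region that spans the start was at -1.01 and -0.178. Fars2, the mitochondrial phenylalanine enzyme gene, had -0.764 points in the radiation table. Qars, the glutamine enzyme gene, had 1 diet region at -19.5 points and Lars 1 at -0.459. Nars2 had diet regions at -1.79 and -24.2 points, and Dars, the aspartate enzyme gene, at 1.54 and -0.119.

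Over all listed regions, absolute differences between 30 and 35 points made up 33.5% of the radiation table of satellite cells and 2.17% of that of the stromal vascular fraction. Sizes near 34 points were therefore common in the satellite cell table and not particular to synthetases. How CpGs were joined into regions is not stated by the submitters, and the values of single samples are not known.

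In the stromal vascular fraction the radiation table held 9 synthetase regions of 5 genes, 4 of them with at least 10 points, beside 30.7% of 5493 listed regions. The diet table held 7 regions of 5 genes, 4 with at least 10 points, beside 60.4% of 7997. Wars2, the mitochondrial tryptophan enzyme gene, had the largest differences, 38.3 points for radiation and 38.1 for diet at 285 to 326 bases after the start. Farsa had 37.9 points for radiation and 38.0 for diet at 12 to 53 bases after the start, a stretch that takes in the regions at 15 and at 26 to 53 bases described for satellite cells. Both genes thus had large positive differences in both tables, which share their group 1 level. Sars had 8.32 and 2.87 points for radiation. Dars, 250 bases after the start, had -21.3 points for radiation and 0.381 for diet, and Ears2 had -20.8 for diet. Iars2 regions were at 0.252, -16.9 and -1.10 points for radiation and at -16.6, 1.17 and -0.0814 for diet.

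The interaction tables listed 1 synthetase each. Wars2 in the stromal vascular fraction had a difference of -51.7 points and Ears2 in satellite cells 0.0109 in the authors' deposited tables. Across assays, 4 of the 12 genes listed for RNA also had listed bisulfite regions in satellite cells, Gars, Lars, Tars and Nars2, and 0 had a listed MBD region. Of all 36 members, 13 had bisulfite regions in satellite cells and 5 an MBD region, so 4 of 12 was near the share of the family. The same overlap over all genes was not counted. Since group 1 and group 2 are not named, the direction of their methylation cannot be set beside the fall of their transcripts. No table listed Hars, Iars, Kars, Rars, Vars, Wars, Aars2, Mars2, Pars2, Vars2 or Yars2.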

How the data were processed

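The members and the lists of related genes and markers were chosen with earlier results of these data known. Per the submitters' processing notes, RNA reads were processed with TopHat2, featureCounts and edgeR, MBD reads with Bowtie2, featureCounts and edgeR, and RRBS reads with Bismark 0.14.4, all on mm10. Per the file headers, the deposited RNA tables gave log2 fold changes, a likelihood ratio, log2 CPM as abundance, and p-values with their adjustment. The deposited MBD columns also carried the authors' notes, so they were treated as a score, as were likelihood ratios and RRBS differences, and lines that name no chromosome were dropped. Group levels in the RRBS tables belong to unnamed groups and served only to check whether tables share a side.

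Adjusted p times rank over p gave 12371 tested genes in each RNA table, and each listed all genes with an adjusted p under 0.1. For 13 genes in all 3 irradiation tables, the value over both diets equalled the sum of the chow and high fat diet effects to within 3.11e-15, so it was divided by 2. The direction came from the tables' names. The approximate standard error was the absolute log2 fold change over the square root of the likelihood ratio, and a 95% interval extends 1.96 of these. The difference between diets was given the variance of their sum, which assumes that the effects on the diets are uncorrelated. Its code was run on simulated data built with the same relation and with larger differences. That run checks the code and not the approximation. No refit was possible, and depth is unknown. Every member in a table is named, and of each related list up to 6 genes past 0.05 by size. The design foresaw adjusted p-values for MBD and RRBS, where unadjusted ones were given. Alternatives were thresholds, Bonferroni adjustment, current symbols and size filters. Python 3.11.15, pandas 2.3.3 and SciPy 1.17.1 were used, and promoter sequences came from RefSeq (GRCm38.p6). Some related genes and 1 promoter are not reported here.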

Additional observations from a re-analysis of the deposited data

How the results depend on the processing

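Over both diets, the 9 members lower at 0.05 became 12 at 0.1, 3 at an adjusted p under 0.01 (Gars, Cars and Nars) and 0 under Bonferroni adjustment over all tested genes. On chow the 2 members became 4 at 0.1, 0 at 0.01 and 0 under Bonferroni adjustment. Counts on the high fat diet and for diet in irradiated mice stayed at 0 under the thresholds tried, and matching by current symbols changed no RNA count. The count for the difference between diets also stayed at 0 with a standard error taken from the p-value. That p-value belongs to the same likelihood ratio test, so this count could hardly have changed. Of the 7 MBD regions, 1 had an absolute log2 fold change of at least 1. With at least 10 percentage points, satellite cell regions numbered 7 of 17 for radiation, 12 of 25 for diet and 0 of 1 for the interaction, and stromal vascular fraction regions 4 of 9 for radiation and 4 of 7 for diet. The alternatives reused the deposited fold changes and differences, so no direction could turn. No paired analysis was possible because the tables hold no values of single samples, and leaving out replicates was not run for the same reason. The approximate standard errors rest on the likelihood ratio, and the spread between animals is unknown.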
